A study of Mus musculus with 109 samples.

Results

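Interferon-inducible GTPases are proteins that cells make in quantity after interferon, and this account follows 10 of them, named by gene symbol, through mouse microglia, the resident macrophages of the brain. They comprise 6 guanylate-binding proteins (Gbp2, Gbp3, Gbp4, Gbp5, Gbp6 and Gbp7) and 4 immunity-related GTPases (Iigp1, Irgm1, Irgm2 and Igtp). Of the 10, 9 had a row in the deposited expression tables, which together list 13902 genes, and Gbp6 was not analysed here. Microglia were sorted on CD45 and CD11b and profiled in bulk by MARS-seq, which counts tags near the 3′ end of each transcript. Mice received bacterial lipopolysaccharide (LPS) at 2.5 mg/kg into the peritoneum, or were left untreated. Il10ra mutants carried CX3CR1-CreER:IL10Rafl/fl, an inducible Cre in cells expressing CX3CR1 with a floxed receptor for interleukin-10, and were sampled untreated (9 libraries) and at 6 h (7), 24 h (5) and 48 h (5) after LPS. Their controls were IL10Rafl/fl mice without Cre, sampled untreated (6 libraries), at 6 h (6), 24 h (4) and 48 h (6), and on day 7 (4). Il10ra-Tnf double mutants carried CX3CR1-CreER:IL10Rafl/fl:TNFfl/fl and were sampled untreated (5 libraries), at 6 h (6) and at 48 h (4). Their controls were IL10Rafl/fl:TNFfl/fl mice without Cre, sampled untreated (6 libraries), at 6 h (5) and at 48 h (6). Untreated C57BL/6 mice gave 4 libraries. All mutants and their own controls carry the floxed alleles, and the mutants alone carry Cre. CX3CR1, which drives the Cre, is made by monocytes as well as microglia.

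Guanylate-binding proteins assemble on vacuoles and on the surface of bacteria that have entered the cytosol, where they promote lysis and feed the caspases of the inflammasomes. Immunity-related GTPases fall into effectors such as Iigp1, which coat and disrupt the vacuoles of parasites, and regulators of the Irgm class (Irgm1, Irgm2 and Igtp), which keep the effectors inactive on the cell's own membranes. Their genes are induced through STAT and IRF transcription factors, which bind an interferon-stimulated response element (ISRE) or a gamma-activated site (GAS) in the promoter. Interleukin-10 is a cytokine that restrains macrophages exposed to LPS.

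Gbp5, Gbp7, Gbp3 and Gbp2 lie in this order in a cluster on chromosome 3. They are at chr3:142496934-142522344, chr3:142530336-142550151, chr3:142560016-142573213 and chr3:142620663-142638008 in GRCm38.p6, the build called mm10 in the submitters' processing notes. Gbp4 lies apart, at chr5:105115767-105139586. Irgm1 is at chr11:48865245-48871420, and Igtp (chr11:58199556-58207592) and Irgm2 (chr11:58214977-58222783) are neighbours with 7384 bases between them. Members of the chromosome 3 cluster are close copies of each other, so tags could have been split or shared among them by the authors' counting, and their separate values are uncertain to that extent.

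Promoter windows from RefSeq, running from 250 bases before to 50 bases after each start site, were found for 7 of the 9 genes. The ISRE core was searched as GAAA, any 2 bases and GAAA again, and the GAS as TTCNNNGAA, on both strands. The ISRE core was in the windows of 7 of 7 genes, and in 7 of their 8 windows (87.5%), against 3.44% of the 32851 windows of all genes. The GAS was in the windows of 4 of 7 genes and in 4 of 8 windows (50%), against 8.30% of all windows. Each match is a run of letters and not a measured binding site. The 150 bases before the start site are printed for 5 genes that the results turn on, 5′ to 3′ on the strand of the gene, with matches to either motif in capitals. Gbp2 and Gbp5 are shown because they differed most between Il10ra mutants and controls at 48 h, Irgm1 because its ISRE cores overlap, and Igtp and Irgm2 because they are neighbours with like promoters and unlike responses.
Gbp2, chr3:142620513-142620662, plus strand: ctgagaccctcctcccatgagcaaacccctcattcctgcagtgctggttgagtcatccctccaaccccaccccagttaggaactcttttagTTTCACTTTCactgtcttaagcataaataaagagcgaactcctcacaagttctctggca
Gbp5, chr3:142496784-142496933, plus strand: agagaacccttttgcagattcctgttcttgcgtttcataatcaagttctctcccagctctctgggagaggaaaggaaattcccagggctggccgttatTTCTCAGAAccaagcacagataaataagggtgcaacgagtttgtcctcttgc
Irgm1, chr11:48871421-48871570, minus strand: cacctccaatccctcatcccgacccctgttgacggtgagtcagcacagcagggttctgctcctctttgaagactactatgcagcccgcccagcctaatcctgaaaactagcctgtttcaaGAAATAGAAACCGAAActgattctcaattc
Irgm2, chr11:58214827-58214976, plus strand: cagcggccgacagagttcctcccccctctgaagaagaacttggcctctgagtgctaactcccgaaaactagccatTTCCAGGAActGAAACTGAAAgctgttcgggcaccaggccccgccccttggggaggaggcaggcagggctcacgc
Igtp, chr11:58199406-58199555, plus strand: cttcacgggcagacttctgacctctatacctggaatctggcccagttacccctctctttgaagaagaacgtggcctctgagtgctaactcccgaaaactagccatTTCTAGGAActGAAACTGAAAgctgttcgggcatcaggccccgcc

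Counted from the start site, the ISRE core of Gbp2 ran from -59 to -50 on the opposite strand. Gbp3 had overlapping cores from -45 to -36 and from -39 to -30, and Irgm1 had overlapping cores from -30 to -21 and from -24 to -15. Gbp5 had a GAS from -52 to -44, and its ISRE core, from -165 to -156, and a further GAS, from -245 to -237, lie before the printed stretch. Gbp7 had an ISRE core from -53 to -44 and GAS matches from -106 to -98 and from -87 to -79. Igtp had a GAS from -45 to -37 followed by an ISRE core from -34 to -25, and Irgm2 had the same pair, without overlap, from -75 to -67 and from -64 to -55. Of the 60 bases that end with the ISRE core, 58 were the same in Igtp and Irgm2 and 2 differed.

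**Figure D1:**
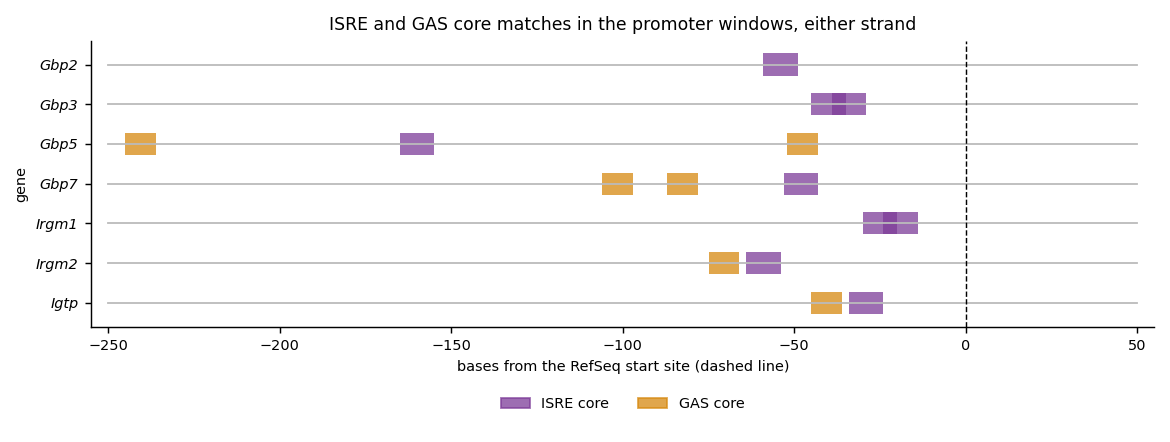
Positions of ISRE cores (purple) and GAS matches (orange) in the promoter windows of 7 interferon-inducible GTPase genes, in bases from the RefSeq start site (dashed line). ISRE cores lie at or after -64 in every gene drawn except Gbp5, whose core starts at -165.

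Values are normalised reads, the authors' counts divided by a factor per library, and they compare a gene between groups but not genes with each other. The 4 deposited tables (controls; controls with Il10ra mutants; doubly floxed mice with 48 h Il10ra mutants; untreated mice) were normalised separately, so every test stays within a table. Libraries held 540642 to 2489084 recovered reads. In each LPS comparison of mutant with control, and in untreated mice, Il10ra was lower in mutants with no overlap (log2 difference -2.93 to -4.16), and Tnf was lower in double mutants, with no overlap at 6 h and 48 h. All 8 microglial markers had reads in every group. Labels also place each library in an experiment, entered as a term in every fit except that of untreated C57BL/6 mice. Most library names carry a number that the labels do not define, and no label ties libraries to animals, so p-values measure the spread between libraries, which may be partly technical. Adjusted p-values are from limma on log2(normalised reads + 1) with Benjamini-Hochberg adjustment over all genes tested, and a call means an adjusted p under 0.05. Differences on that scale understate changes of genes with few reads, and in bulk samples more RNA per cell and more cells that express a gene cannot be told apart.

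In control mice LPS raised most of the GTPases within 6 h. The filter on low values asked for at least 5 normalised reads in at least 4 libraries. Of 8 members that passed it, 7 were called higher at 6 h than in untreated mice. Of all genes, 41.5% were called in either direction and 20.4% were higher. The median log2 difference of the 8 was 2.06, against -0.05 over all genes tested. With the experiment term, these differences rest mainly on the second experiment, with 3 untreated libraries and 3 at 6 h. The other 3 at 6 h are from the challenge experiment, which has no untreated controls. The 6 h folds are thus not averages over all 6 libraries. At 6 h, means in the challenge and second experiments were 159.9 and 309.2 reads for Irgm1 and 155.7 and 318.3 for Igtp. Iigp1 went the other way, at 13.3 and 11.3. Iigp1 passed the filter only through LPS libraries, since none of the 6 untreated control libraries reached 5 reads, and Gbp4 did not pass it in this table. Elsewhere Gbp4 passed through LPS libraries alone, with none of 15 and none of 11 untreated libraries at 5 reads. Iigp1 had 1 of 15 and 3 of 11 there, too few to pass without LPS libraries. The calls of both against untreated mice carry the same limit. Among doubly floxed mice and 48 h Il10ra mutants, Gbp4 passed through mutant libraries alone. Its differences from doubly floxed controls are limited in the same way. Microglial markers moved with the response, summing to 19304 to 22507 normalised reads at 6 h and 37478 to 39560 in untreated controls, with 6 of 8 markers lower. Monocyte markers summed to 124.4 to 214 reads at 6 h and 19.7 to 41.9 in untreated controls, with 4 of 7 higher and 1 lower, and their part in the GTPase values was not tested.

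Gbp2, which is recruited to vacuoles and to cytosolic bacteria, had 109.4, 165 and 296 normalised reads (lowest, median and highest of 6) at 6 h, against 6.86, 12.3 and 19.2 in untreated controls. Every library at 6 h lay above every untreated one, a 16.3-fold rise (log2 4.03 ± 0.52 SE, adjusted p = 4.11e-07). Gbp5, which promotes assembly of the NLRP3 inflammasome, had 43.3, 55.3 and 78.8 reads at 6 h, against 5.15, 7.89 and 14.9 in untreated controls. It too was higher in every library at 6 h, 5.83-fold (log2 2.54 ± 0.34, adjusted p = 7.32e-07). Gbp3 had 41.5, 81.4 and 121.9 reads at 6 h, against 25.7, 35.4 and 37.4 in untreated controls (log2 1.64 ± 0.27, adjusted p = 1.4e-05). Gbp7 had 104, 136 and 184 reads at 6 h, against 27.1, 50.3 and 71.7 in untreated controls (log2 1.84 ± 0.27, adjusted p = 3.19e-06). Both rose without overlap, with smaller estimates than Gbp2. Gbp4 was near the limit of detection, with 0, 2.13 and 8.55 reads at 6 h and 0, 0.368 and 2.35 reads in untreated controls, and was not tested.

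Among the immunity-related GTPases the effector and 2 of the 3 regulators rose. Iigp1, the effector that coats parasite vacuoles, had 5.60, 13.6 and 17.1 reads at 6 h, against 0, 2.92 and 4.98 in untreated controls (log2 2.52 ± 0.73, adjusted p = 0.00623). Its groups did not overlap, and without untreated control replicate 2 the difference was 1.73 with an adjusted p of 0.0812. Irgm1, a regulator that also acts on autophagy and mitochondria, had 117, 239 and 330.2 reads at 6 h, against 63.5, 75.5 and 102.2 in untreated controls, a 3.98-fold rise without overlap (log2 1.99 ± 0.24, adjusted p = 1.54e-07). Igtp, the regulator also called Irgm3, had 139.6, 211 and 364 reads at 6 h, against 49.8, 64.7 and 106.6 in untreated controls, a 4.35-fold rise without overlap (log2 2.12 ± 0.23, adjusted p = 1.9e-08). Irgm2, the remaining regulator, had 46.5, 59.2 and 82.5 reads at 6 h and 54.2, 63.8 and 75.9 reads in untreated controls. Its groups overlapped across most of their range, and the log2 difference of 0.24 ± 0.20 (95% interval -0.16 to 0.65) was not called (adjusted p = 0.347).

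The contrast between the neighbours Igtp and Irgm2 was followed through all 4 genotypes by the gap between their log2 values in the same library, given as a description with no test because the pair was chosen for its unlike responses. In Il10ra mutants the gap averaged 2.04 ± 0.56 at 6 h (SD, n = 7) and 0.06 ± 0.36 in untreated mice (n = 9), a shift of 1.98 without overlap. In their controls it averaged 1.85 ± 0.56 at 6 h and 0.09 ± 0.44 in untreated mice (n = 6 each), a shift of 1.77 without overlap. In double mutants it averaged 1.26 ± 0.53 at 6 h (n = 6) and 0.01 ± 0.55 in untreated mice (n = 5), a shift of 1.25 with overlap. In doubly floxed controls it averaged 0.95 ± 0.25 at 6 h (n = 5) and -0.43 ± 0.25 in untreated mice (n = 6), a shift of 1.38 without overlap. The mean gap was wider at 6 h in each of the 4 genotypes. Within single experiments holding both times, the shift was 1.94 in controls, 1.36 and 2.57 in Il10ra mutants, 1.13 and 1.33 in double mutants and 1.32 and 1.40 in doubly floxed controls.

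**Figure D2:**
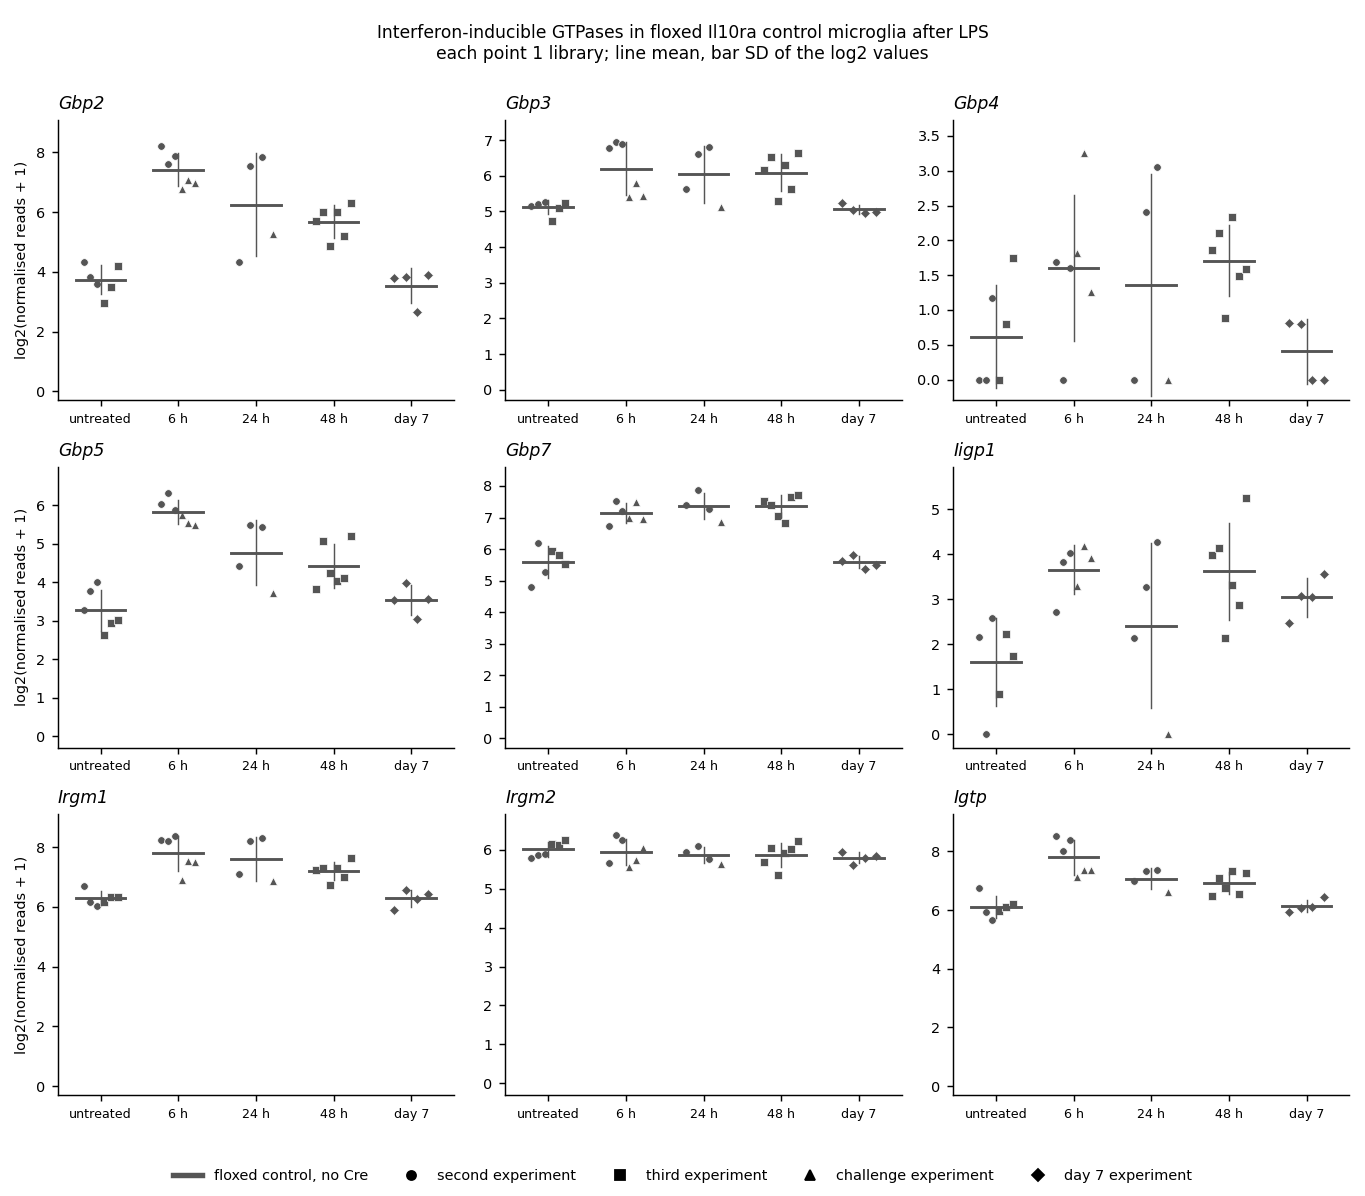
Normalised reads of 9 interferon-inducible GTPases in floxed Il10ra control microglia, on a log2(reads + 1) axis, untreated and at 6 h, 24 h, 48 h and day 7 after LPS. Each point is 1 library, marker shape is the experiment, lines are means and bars are SDs of the log2 values; Irgm2 stays between 40.2 and 82.5 reads in every library.

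At 24 h the control libraries were spread widely. Gbp2 had 184, 231 and 19.1 reads in the 3 libraries of the second experiment and 37.7 in the challenge experiment, so 2 of 4 libraries stayed in the 6 h range and 1 was just under the untreated maximum of 19.2. Irgm1 showed a similar division, with 293, 314 and 136 reads in the second experiment and 116.3 in the challenge experiment. A difference between these experiments was already present at 6 h. There Gbp2 had 195 to 296 reads in the second experiment and 109.4 to 135 in the challenge experiment. Irgm1 had 296 to 330.2 and 117 to 182 at 6 h, whereas Gbp7 overlapped, with 104 to 184 and 121.6 to 181. Of 8 members tested, 6 were higher at 24 h than in untreated mice (29.2% of all genes called, 14.2% higher), but only Gbp7 and Irgm1 did so without overlap. Gbp7 stayed above every untreated library, with 234, 154 and 168 reads in the second experiment and 116.3 in the challenge experiment (log2 1.99 ± 0.27 over untreated, adjusted p = 2.39e-06). Iigp1 (log2 1.05 ± 0.73, adjusted p = 0.299) and Irgm2 (0.09, adjusted p = 0.788) were not called.

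Some of the GTPases were lower again by 24 h. Between 24 h and 6 h, 3 of 8 members were lower (26.3% of all genes called, 13.4% lower): Gbp5 (log2 -1.26 ± 0.29, adjusted p = 0.00199), Igtp (-0.94 ± 0.19, adjusted p = 0.000728) and Gbp2 (-1.44 ± 0.44, adjusted p = 0.0173). All 3 overlapped between the times. The Gbp2 call was lost without the 24 h control replicate 3 (-0.77, adjusted p = 0.0832) or replicate 4 (-1.32, adjusted p = 0.0836). It was also lost with DESeq2 (-1.02, adjusted p = 0.0891) and without the experiment term (-1.17, adjusted p = 0.0678). Within the second experiment alone neither Gbp2 (-1.32, adjusted p = 0.254) nor Gbp5 (-0.96, adjusted p = 0.108) was called.

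At 48 h, 7 of 8 members were still higher than in untreated controls (19% of all genes called, 11.1% higher). Gbp2 had 28.2, 56.9 and 78.9 reads (log2 2.13 ± 0.47 over untreated, adjusted p = 0.00151) and Gbp7 had 111.6, 175 and 211 (1.59 ± 0.25, adjusted p = 2e-05). Both stood above every untreated library, and Gbp7, unlike Gbp2, had a higher mean at 48 h than at 6 h, with overlapping libraries. Irgm1 was at 105, 152 and 199.6 reads (0.91 ± 0.22, adjusted p = 0.00341) and Igtp at 89.3, 119.996 and 162 (0.82 ± 0.21, adjusted p = 0.00477). Iigp1 ranged from 3.42 to 36.9 reads (1.99 ± 0.66, adjusted p = 0.0316), and its call was lost when any of 5 libraries was left out, with values of 1.63 to 2.05 and adjusted p of 0.0546 to 0.173 (untreated control replicates 4 and 6, 48 h control replicates 1, 2 and 6). Irgm2 was again not called (-0.31 ± 0.18, adjusted p = 0.244). Microglial markers summed to 24038 to 29725 reads at 48 h and 37478 to 39560 in untreated controls, with 4 of 8 lower. Monocyte markers summed to 160.5 to 289.6 reads at 48 h and 19.7 to 41.9 in untreated controls (2 of 7 higher, 1 lower), and markers of border macrophages to 63.9 to 119.9 and 13.7 to 63.5 (2 of 6 tested higher, 1 lower). The part of these in the GTPase values was not tested.

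On day 7 none of 8 members was called against untreated controls (3.22% of all genes called); by unadjusted p under 0.05 there was 1, Iigp1, and edgeR and DESeq2 each called 0. Gbp2 had 12.96, 13.3, 5.28 and 13.8 reads on day 7, within or below the untreated range, and Gbp7 had 48.0, 55.5, 40.3 and 44.4, within it. Iigp1 had 4.58, 7.40, 7.26 and 10.7 reads on day 7, against a highest untreated value of 4.98 (log2 1.74 ± 0.65, adjusted p = 0.179). The day 7 libraries form an experiment of their own, so time and experiment cannot be told apart. They also held 2588 to 19329 normalised reads of neutrophil markers and 1588 to 3558 of red cell markers, against 6.01 to 813 and 0 to 256 in untreated controls; 6 of 7 neutrophil and 4 of 4 red cell markers were higher, as were 5 of 7 monocyte markers. The part of these cells in the day 7 values was not tested.

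In the order of group means, Gbp2, Gbp3, Gbp5, Irgm1 and Igtp ran 6 h, 24 h, 48 h and then untreated and day 7 together. In Gbp2, Gbp3, Gbp7, Irgm1 and Igtp the only neighbours in that order whose libraries did not overlap were the lowest LPS group up to 48 h and the untreated or day 7 group. Gbp7 was highest at 24 h and Iigp1 at 48 h, and all groups of Irgm2 overlapped with their neighbours.

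No GTPase difference between genotypes was called before LPS. None of 9 members was called between untreated Il10ra mutants and untreated controls (0.00865% of all genes called, 1 gene); by unadjusted p under 0.05 there were 0, and edgeR and DESeq2 each called 0. Gbp2, for example, had 6.68, 12.2 and 27.5 reads in 9 mutants and 6.32, 11.3 and 17.7 in 6 controls.

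At 6 h the mutant libraries were spread widely and 1 member, Gbp3, was called. Gbp5 had 31.0, 105.8 and 195 reads in 7 mutants and 39.4, 50.01 and 71.8 in 6 controls, and Gbp3 had 44.8, 145 and 229 in mutants and 37.9, 73.2 and 111.2 in controls. In both genes the lowest mutant library lay within or below the control range. Of 9 members, Gbp3 was higher in mutants by log2 0.90 ± 0.24 (1.87-fold, adjusted p = 0.0315), where 3.31% of all genes were called and 1.89% were higher. Gbp5 (0.96 ± 0.33, adjusted p = 0.0873), Irgm1 (0.50 ± 0.18, adjusted p = 0.108) and Gbp7 (0.46 ± 0.19, adjusted p = 0.161) were not called. The Gbp3 call was lost without any 1 of 7 libraries (control replicates 4, 5 and 6, mutant replicates 1, 4, 5 and 6; log2 0.78 to 0.91, adjusted p 0.0503 to 0.125) and within the second experiment alone (0.55, adjusted p = 0.653). Without mutant replicate 7, the lowest of the 7 mutants in all members except Gbp7, Gbp5 (1.23, adjusted p = 0.0152) and Irgm1 (0.61, adjusted p = 0.033) were called too, and under the replicate block Gbp5 was called (1.04, adjusted p = 0.0423).

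At 24 h Gbp2 had 223, 328, 121.98, 145 and 213 reads in the 5 mutants, against 169.5, 212, 17.5 and 34.6 in the 4 controls. All mutants were high, while controls were high in 2 libraries and low in 2. Gbp2 was the 1 member of 9 called (log2 1.72 ± 0.44, 3.3-fold, adjusted p = 0.024; 3.5% of all genes called, 1.11% higher). That call was lost without control replicate 3 (1.05, adjusted p = 0.255), control replicate 4 (1.52, adjusted p = 0.24) or mutant replicate 2, 4 or 5 (1.61 to 1.75, adjusted p 0.0511 to 0.072), and within the second experiment it stood at 1.63 (adjusted p = 1.0). Gbp4 had 4.60, 6.66, 5.63, 6.13 and 5.81 reads in mutants and 3.94, 6.65, 0 and 0 in controls (1.5 ± 0.56, adjusted p = 0.108), and without control replicate 2 it was called (2.01, adjusted p = 0.0173), as was Iigp1 (1.87, adjusted p = 0.0409).

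At 48 h the separation was clearest for Gbp2. It had 122.2, 306, 251, 323 and 355 reads in the 5 mutants, against 26.001, 52.8 and 72.4 (lowest, median and highest of 6) in controls. Every mutant exceeded every control, and the fitted difference was 4.46-fold (log2 2.16 ± 0.46, 95% interval 1.23 to 3.08, adjusted p = 0.000307). The fit takes its value from the third experiment, which holds all 6 controls. It thus rests on mutant replicates 1 to 3 (122.2, 306 and 251 reads). Irgm1 had 288, 187, 230.2, 170.4 and 194 reads in mutants, against 96.9, 140.02 and 183 in controls, with 1 mutant below the highest control (0.78 ± 0.23, 1.71-fold, adjusted p = 0.00782). Without mutant replicate 1 Irgm1 was at 0.62 (adjusted p = 0.0733). These were the 2 members called of 9, both higher, where 27.9% of all genes were called and 12.7% were higher. The median log2 difference of the 9 was 0.72, against 0.01 over all genes.

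The other guanylate-binding proteins had positive log2 differences at 48 h without a call. Gbp5 had 19.4, 60.8 and 52.1 reads in the mutants of the third experiment and 171 and 229 in those of the double-mutant second experiment, against 12.1, 15.8 and 33.0 in controls. The second pair stood far above the first 3, and the fit, which takes its value from the third experiment that holds all 6 controls, gave 1.04 ± 0.42 (adjusted p = 0.0539). Without the experiment term Gbp5 was at 1.96 (adjusted p = 0.000236), without mutant replicate 1 at 1.54 (adjusted p = 0.0101), and edgeR (1.19, adjusted p = 0.013) and DESeq2 (1.15, adjusted p = 0.0236) called it. Gbp3 had 99.8, 122.2, 97.1, 78.1 and 133 reads in mutants, against 35.5, 68.8 and 90.8 in controls (0.76 ± 0.31, adjusted p = 0.0613). It was called in 6 of 19 alternatives. Among these were the third experiment alone (0.76, adjusted p = 0.0145), edgeR (0.72, adjusted p = 0.0377), quantile normalization (0.79, adjusted p = 0.0429) and no experiment term (0.74, adjusted p = 0.047). Gbp4 had 4.01 to 9.85 reads in mutants and 0.788 to 3.76 in controls, without overlap, but was not called (0.72 ± 0.57, adjusted p = 0.373). Gbp7 (0.21, adjusted p = 0.577), Igtp (0.39, adjusted p = 0.299), Iigp1 (0.61, adjusted p = 0.51) and Irgm2 (0.07, adjusted p = 0.874) were not called.

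Within the mutants, Gbp2 was above untreated at every time. It was 3.87 ± 0.35, 3.85 ± 0.38 and 4.02 ± 0.49 log2 units above untreated mutants at 6 h, 24 h and 48 h, with adjusted p of at most 6.08e-09. At each time 8 of 9 members were higher than in untreated mutants (55.1%, 53.5% and 35.6% of all genes called; 26.5%, 26% and 17.7% higher), the exception being Irgm2. The 8 include Gbp4 and Iigp1, which passed the filter only with LPS libraries (0 and 1 of 15 untreated libraries at 5 reads). Between 24 h and 6 h in mutants, 3 members were lower (23.1% of all genes called, 12.5% lower): Gbp5 (-1.25 ± 0.35, adjusted p = 0.00616), Igtp (-0.97 ± 0.23, adjusted p = 0.00116) and Irgm2 (-0.61 ± 0.21, adjusted p = 0.0258, lost without 24 h mutant replicate 4 at -0.33 and adjusted p = 0.229, or 6 h mutant replicate 2 at -0.52 and adjusted p = 0.0661). Gbp2 was at -0.02 ± 0.38 over the same interval. Within the challenge experiment alone Gbp5 (-1.37, adjusted p = 0.07165) and Igtp (-0.76, adjusted p = 0.0916) lost their calls. There Gbp7 was the 1 member called (-0.94, adjusted p = 0.00577). Microglial markers summed to 29541 to 34435 reads in untreated mutants, 17701 to 22939 at 6 h, 12791 to 14662 at 24 h and 8843 to 15111 at 48 h, with 6, 8 and 8 of 8 lower than untreated, and monocyte markers to 14.8 to 35.4, 39.6 to 332, 38.5 to 183 and 36.3 to 199. Their part in these values was not tested.

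Whether the LPS response itself differed between mutants and controls was tested by the interaction of genotype and time. At 48 h 1 of 9 members was called, Gbp2, whose response was larger in mutants by log2 1.84 ± 0.58 (95% interval 0.68 to 3.01, adjusted p = 0.0215), where 16.4% of all genes were called and 6.74% were higher. That call was lost without 48 h mutant replicate 2 (1.58, adjusted p = 0.111) or replicate 3 (1.72, adjusted p = 0.0707). Like the 48 h difference from controls, it rests on the 48 h mutants of the third experiment. At 6 h and 24 h limma called 0 members (0.0% and 0.0433% of all genes called); by unadjusted p under 0.05 there were 1 and 2, and edgeR and DESeq2 each called 0. The Gbp2 interaction at 24 h was 1.41 ± 0.56 (adjusted p = 0.271), and without 24 h control replicate 2 it was 1.89 (adjusted p = 0.0444).

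Microglial markers moved with the 48 h result. Their summed level was 8843 to 15111 normalised reads in 48 h mutants, against 22162 to 27490 in 48 h controls, and 8 of 8 markers were lower. Neutrophil markers summed to 27.75 to 1303 reads in 48 h mutants, against 26.59 to 236 in controls, with 3 of 7 higher. Monocyte markers summed to 36.29 to 199 reads in mutants and 147.96 to 269 in controls, with 1 of 7 higher, Ly6c2. Border macrophage markers summed to 9.76 to 27.5 reads in mutants and 58.7 to 107.5 in controls, with 1 of 5 tested lower, and B lymphocyte markers to 183 to 279.6 and 354 to 557, with 1 of 2 lower. The B lymphocyte sum uses 2 of 5 listed genes and, like the microglial sum, fell after LPS in controls. It was 574 to 770 untreated and 78.2 to 112.5 at 6 h. Whether it reflects B lymphocytes was not tested. No marker of T or NK lymphocytes, common makers of interferon gamma, had enough reads to be tested. The part of these shifts in the GTPase values was not tested.

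**Figure D3:**
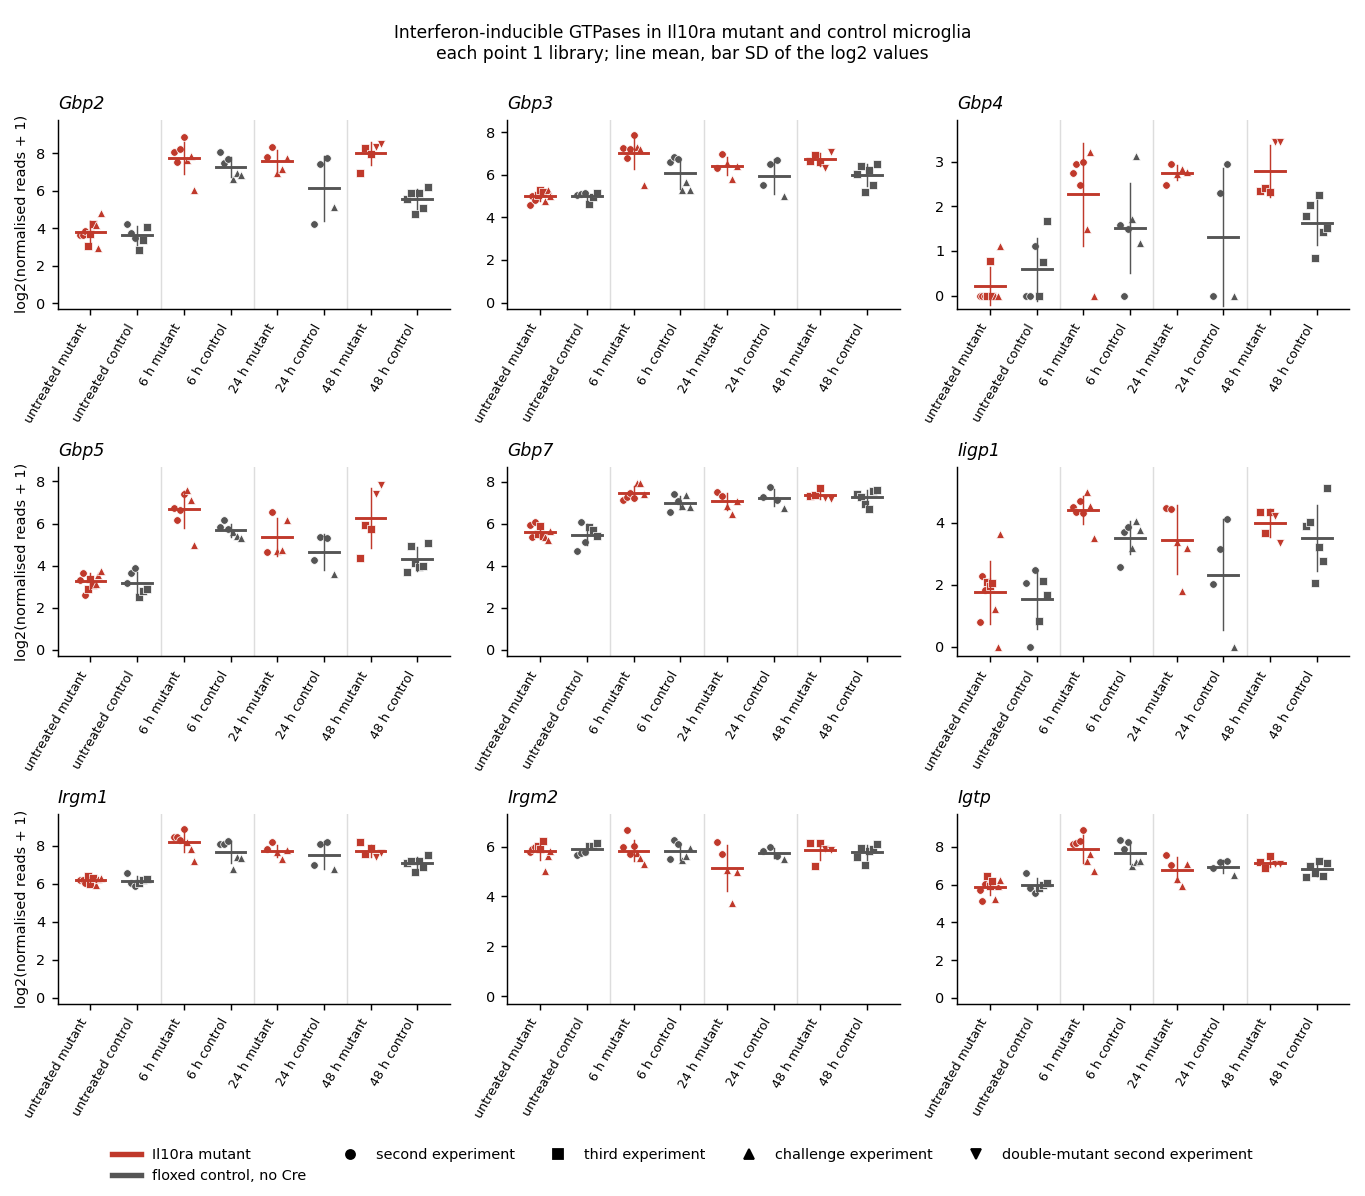
Normalised reads of 9 interferon-inducible GTPases in Il10ra mutant (red) and floxed control (grey) microglia, on a log2(reads + 1) axis, untreated and at 6 h, 24 h and 48 h after LPS. Each point is 1 library, marker shape is the experiment, lines are means and bars are SDs of the log2 values; at 48 h every mutant Gbp2 point (122.2 to 355 reads) lies above every control point (26.001 to 72.4).

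In mutants of both Il10ra and Tnf, no difference in a GTPase from doubly floxed controls was called by limma. At 48 h Gbp2 had 54.3, 65.6, 39.5 and 35.0 reads in double mutants and 32.5, 44.9 and 59.6 in controls (log2 0.12 ± 0.30, 95% interval -0.48 to 0.72). Gbp5 had 41.1, 23.8, 41.0 and 36.1 reads in double mutants and 14.9, 23.9 and 48.9 in controls (0.35 ± 0.34, 95% interval -0.34 to 1.03). In both genes the groups overlapped, and the intervals include 0. Untreated, at 6 h and at 48 h limma called 0 of 9 members (0.0254%, 0.0678% and 0.0169% of all genes called); by unadjusted p under 0.05 there were 3, 3 and 1. The edgeR test called 0 at each time, and DESeq2 called 0, 1 and 0.

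The 1 member called by DESeq2 at 6 h was Igtp, which had 175, 221 and 277 reads in 6 double mutants, against 98.001, 192, 163, 131 and 119.9 in 5 controls (limma log2 0.66 ± 0.17, adjusted p = 0.099; DESeq2 0.63, adjusted p = 0.0241). Gbp4 (1.67 ± 0.43, adjusted p = 0.0994) and Iigp1 (1.34 ± 0.44, adjusted p = 0.199) were the other members past an unadjusted p of 0.05. Iigp1 had 9.96, 33.7 and 49.4 reads in double mutants, against 4.96, 15.8, 5.26, 13.5 and 16.3 in controls. Without double mutant replicate 3 Igtp (0.73, adjusted p = 0.0276) and Gbp4 (1.80, adjusted p = 0.0416) were called, and Gbp4 also without replicate 4 (1.89, adjusted p = 0.0488). The interaction of genotype and time called 0 members at 6 h and at 48 h (0.00847% and 0.0% of all genes called; 5 and 2 by unadjusted p under 0.05; 0 by edgeR and by DESeq2), and was largest at 6 h for Iigp1 (2.59 ± 0.62, adjusted p = 0.299).

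Against Il10ra mutants at 48 h, the double mutants were lower in 3 of 9 members (28.6% of all genes called, 13.7% lower). Gbp2, with the double-mutant values above, had 127.7, 322, 263, 337 and 371 reads in Il10ra mutants on the scale of this table. No double mutant reached the lowest Il10ra mutant (log2 -2.79 ± 0.40, adjusted p = 1.23e-06). Gbp5 had 20.2, 64.0, 54.6, 179 and 239 reads in Il10ra mutants and overlapped with double mutants (-2.71 ± 0.46, adjusted p = 2.04e-05). Igtp had 119, 74.8, 101 and 57.6 reads in double mutants and 151, 121.8, 191, 143 and 143 in Il10ra mutants, without overlap (-0.66 ± 0.25, adjusted p = 0.0386). The Igtp call was lost without Il10ra mutant replicate 4 or 5 or double mutant replicate 2 or 4 (-0.52 to -0.66, adjusted p 0.115 to 0.166). It was also lost with edgeR (-0.58, adjusted p = 0.0533), DESeq2 (-0.61, adjusted p = 0.053), quantile normalization (-0.59, adjusted p = 0.0549), 1 experiment alone (-0.60, adjusted p = 0.144) and the replicate block (-0.88, adjusted p = 0.0679).

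Il10ra mutants at 48 h were also set against the doubly floxed controls, a comparison that shares the Il10ra mutant libraries with the previous one. Of 9 members 4 were higher (33.9% of all genes called, 16.6% higher): Gbp2 (2.91 ± 0.38, 7.53-fold, adjusted p = 1.09e-07), Gbp5 (3.06 ± 0.43, 8.34-fold, adjusted p = 6.14e-07), Igtp (1.04 ± 0.23, adjusted p = 0.000443) and Gbp4 (1.52 ± 0.59, adjusted p = 0.0424). Gbp4 lost its call without any 1 of 6 libraries (Il10ra mutant replicates 4 and 5, control replicates 2, 4, 5 and 7; 1.43 to 1.52, adjusted p 0.053 to 0.191). It also passed the filter through mutant libraries alone, with at most 4.70 reads in doubly floxed controls, so its call carries that limit. With the experiment term, both comparisons take their value from the 2 Il10ra mutant libraries of the double-mutant second experiment, the pair in which Gbp5 was highest. Without that term Gbp5 was at -1.17 (adjusted p = 0.0461) in double mutants against Il10ra mutants and at 1.57 (adjusted p = 0.00239) in Il10ra mutants against doubly floxed controls. Microglial markers summed to 20044 to 24184 reads in double mutants, 9297 to 15793 in Il10ra mutants and 22262 to 25838 in doubly floxed controls at 48 h, with 7 of 8 markers higher in double mutants than in Il10ra mutants. Monocyte markers summed to 230.2 to 529 reads in double mutants and 38.2 to 208 in Il10ra mutants (1 of 7 higher, Fn1, and 1 lower, F10), and border macrophage markers to 28.5 to 126.4 and 10.2 to 28.7 (1 of 7 higher, Cbr2). The part of these markers in the GTPase values was not tested.

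**Figure D4:**
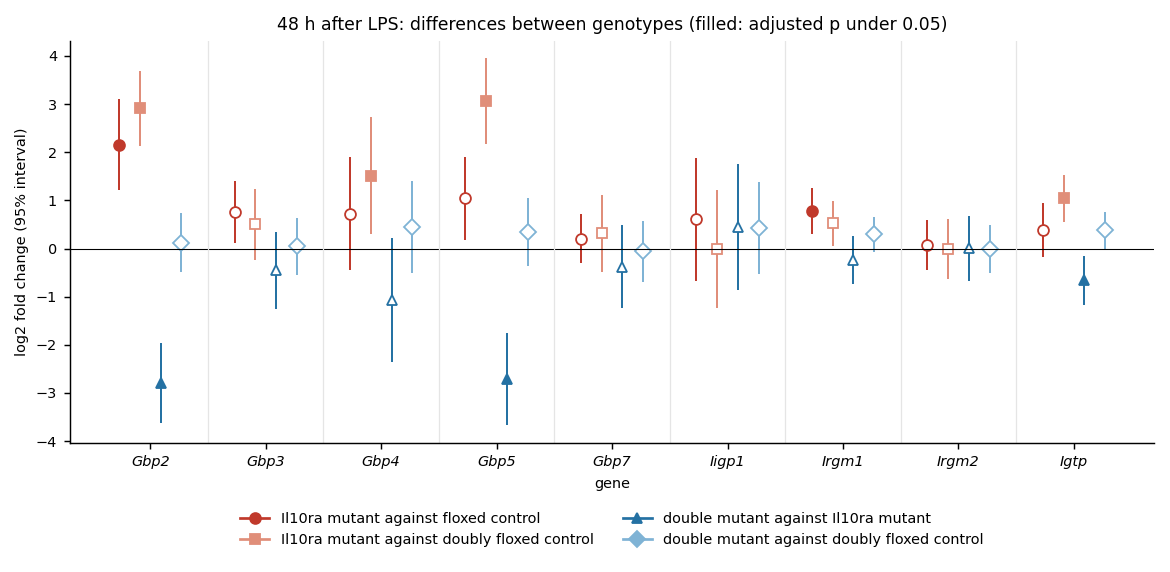
Log2 differences at 48 h after LPS for each tested GTPase in the comparisons of mutants with controls and of double mutants with Il10ra mutants, with 95% intervals; filled points have an adjusted p under 0.05. Gbp2 is higher in Il10ra mutants than in controls (2.16) and lower in double mutants than in Il10ra mutants (-2.79), and its interval in double mutants against their controls (-0.48 to 0.72) includes 0.

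The LPS response of the family was present in both doubly floxed genotypes. In double mutants at 6 h 9 of 9 members were higher than untreated (44.3% of all genes called, 22.8% higher), among them Gbp5 (3.44 ± 0.32), Gbp2 (3.38 ± 0.28) and Iigp1 (3.70 ± 0.44, adjusted p = 5.72e-09). Gbp4 and Iigp1 count among the 9 but passed the filter only with LPS libraries, with 0 and 3 of 11 untreated libraries at 5 reads. Iigp1 had 0, 4.23, 3.90, 0 and 1.46 reads in untreated double mutants, and its difference ran from 2.35 with a pseudocount of 5 to 4.15 over the alternatives. Irgm2 was among them (0.84 ± 0.22, adjusted p = 0.00199), with 60.6, 98.7 and 117 reads at 6 h, against 58.5, 64.8, 37.0, 76.4 and 27.8 in untreated double mutants; within 1 experiment it was at 0.49 (adjusted p = 0.124). In doubly floxed controls at 6 h 7 of 9 were higher (42.7% of all genes called, 21.6% higher), and Irgm2 (0.13) and Gbp4 (0.58, adjusted p = 0.299) were not called. The Iigp1 call among them (1.11, adjusted p = 0.0373) was lost without any 1 of 6 libraries (untreated control replicates 1, 3 and 6, 6 h control replicates 2, 4 and 5; 0.90 to 1.09, adjusted p 0.0664 to 0.122). It was also lost without the experiment term (1.06, adjusted p = 0.0628), under the replicate block (1.03, adjusted p = 0.0621) and within 1 experiment (0.97, adjusted p = 0.231).

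Markers moved with LPS in these mice too. Microglial markers summed to 14730 to 19097 reads in double mutants at 6 h and 20044 to 24184 at 48 h, against 31942 to 34557 untreated, with 7 and 5 of 8 lower. In doubly floxed controls they summed to 16094 to 19303 at 6 h and 22262 to 25838 at 48 h, against 34299.7 to 38345 untreated, again with 7 and 5 of 8 lower. Monocyte markers summed to 209 to 416 reads in double mutants at 6 h and 230.2 to 529 at 48 h, against 13.2 to 54.6 untreated, with 5 and 3 of 7 higher. In doubly floxed controls these were 126.9 to 678 at 6 h and 162.7 to 466 at 48 h, against 11.75 to 40.6 untreated, with 4 and 3 of 7 higher. The part of these markers in the LPS response of the GTPases was not tested.

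By 48 h several members were lower than at 6 h in both genotypes. In double mutants 5 members were lower at 48 h than at 6 h (39.6% of all genes called, 18.7% lower), with Gbp5 (-1.77), Gbp2 (-1.38) and Igtp (-1.32) ahead of Irgm2 (-0.59, adjusted p = 0.0433) and Irgm1 (-0.43, adjusted p = 0.0452). The Irgm1 and Irgm2 calls were each lost without any 1 of 6 libraries (double mutant 6 h replicates 1, 3 and 5 and 48 h replicates 2 and 4 for both, 6 h replicate 2 for Irgm1 and 6 h replicate 6 for Irgm2; adjusted p 0.0707 to 0.223). In doubly floxed controls 4 were lower (40.0% of all genes called, 18.7% lower): Gbp5 (-1.58), Gbp2 (-1.15), Igtp (-1.04) and Irgm1 (-0.49, adjusted p = 0.0127, lost without 6 h control replicate 2 at -0.42 and adjusted p = 0.0512). At 48 h 8 of 9 members were above untreated in double mutants (18.1% of all genes called, 11.2% higher) and 8 of 9 in doubly floxed controls (23.6% of all genes called, 13.8% higher), Irgm2 being the exception in both. Gbp4 and Iigp1, with the filter limit given above, are among the 8 in both. In doubly floxed controls 3 of those calls were lost under several alternatives. Igtp (log2 0.46, adjusted p = 0.0345) lost its call without any 1 of 6 libraries (untreated replicates 2, 3 and 5, 48 h replicates 4, 6 and 7; 0.40 to 0.44, adjusted p 0.0633 to 0.0891), with edgeR (adjusted p = 0.0545), DESeq2 (adjusted p = 0.0642) and the replicate block (0.50, adjusted p = 0.0794), and within 1 experiment (0.36, adjusted p = 0.317). Gbp5 (0.92, adjusted p = 0.0234) lost it without any 1 of 5 libraries (untreated replicates 3, 4 and 6, 48 h replicates 6 and 7; 0.77 to 0.85, adjusted p 0.0532 to 0.0851), with edgeR (0.91, adjusted p = 0.0541), without the experiment term (0.86, adjusted p = 0.124) and within 1 experiment (0.53, adjusted p = 0.422). Gbp4 (1.35, adjusted p = 0.0143) lost it with a pseudocount of 5 (0.47, adjusted p = 0.0752), edgeR (1.85, adjusted p = 0.0501), DESeq2 (2.00, adjusted p = 0.0632) and quantile normalization (1.01, adjusted p = 0.0603).

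**Figure D5:**
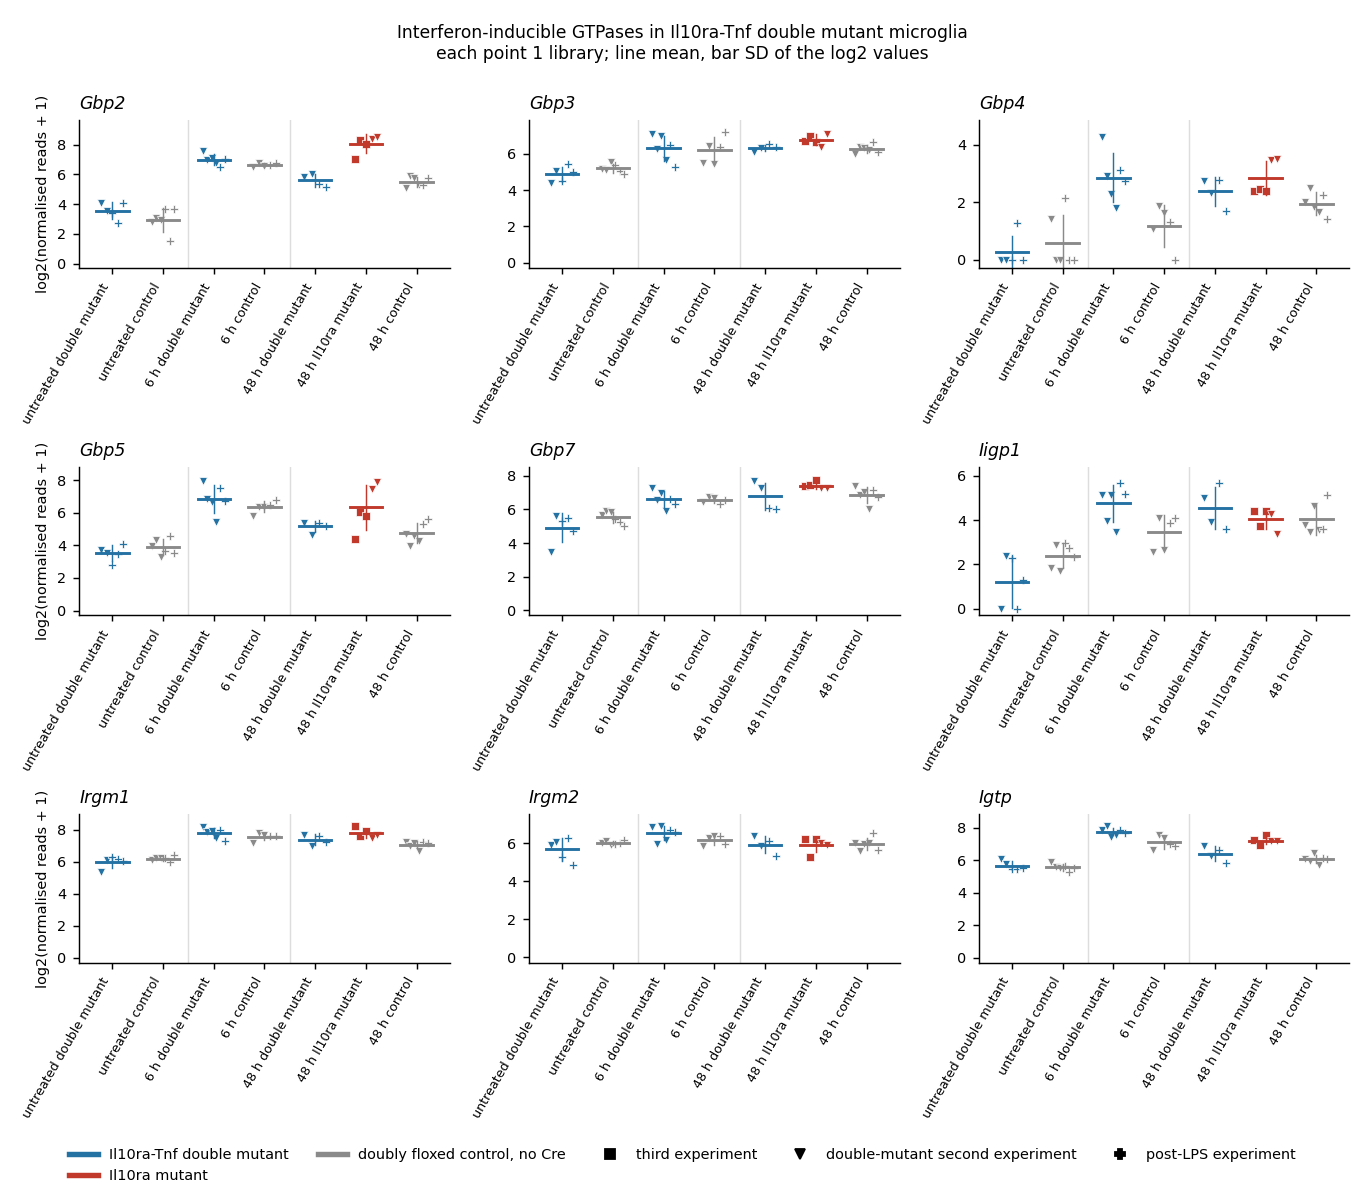
Normalised reads of 9 interferon-inducible GTPases in Il10ra-Tnf double mutants (blue), Il10ra mutants at 48 h (red) and doubly floxed controls (light grey), on a log2(reads + 1) axis. Each point is 1 library, marker shape is the experiment, lines are means and bars are SDs of the log2 values; at 48 h Gbp2 of the double mutants (35.0 to 65.6 reads) lies below that of the Il10ra mutants (127.7 to 371) and among the controls (32.5 to 59.6).

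Untreated C57BL/6 microglia differed from untreated floxed controls in 1 of 8 members tested, Irgm2 (9.74% of all genes called, 5.8% higher). It had 84.8, 86.2, 67.4 and 84.0 reads in C57BL/6 mice, against 45.9, 54.9 and 65.0 (lowest, median and highest of 6) in floxed controls. Every C57BL/6 library was higher, 1.46-fold (log2 0.55 ± 0.18, adjusted p = 0.0468), but the call was lost when any of 8 of the 10 libraries was left out (floxed control replicates 1 to 5, C57BL/6 replicates 1, 2 and 4; 0.50 to 0.57, adjusted p 0.0576 to 0.118). The C57BL/6 libraries form an experiment of their own, so strain and experiment cannot be told apart. This fit had no term for experiment. Among floxed controls Irgm2 had 45.9 to 50.3 reads in the second experiment and 59.4 to 65.0 in the third. Their red cell markers summed to 201.65 to 886 reads, against 0 to 217 in floxed controls, with 4 of 4 higher, and the part of these in the result was not tested.

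The rest of the interferon pathway was read from lists of genes by role. In control mice at 6 h, where 41.5% of all genes were called and 20.4% were higher, the 5 other interferon-inducible GTPases tested were all higher than in untreated mice: Mx1 (log2 3.63 ± 0.43) and Mx2 (3.10 ± 0.25), which restrict viruses, the immunity-related GTPases Ifi47 (2.96 ± 0.51) and Gm12250 (2.45 ± 0.62), and Gbp9 (1.33 ± 0.49, adjusted p = 0.0294). Of 4 ligand genes tested 3 were higher, and these encode subunits of the interleukin-12 family and not interferons: Il12b (4.31 ± 0.59), Il27 and Ebi3. Of 7 receptor and kinase genes Jak1 was higher and Ifnar2 lower. Of 9 transcription factors 8 were higher, among them Irf7 (4.22 ± 0.34) and Irf1 (1.94 ± 0.24), and Irf8 was lower (-0.77 ± 0.15). Of 6 inhibitors 5 were higher, among them Socs1 (3.41 ± 0.41), and Pias1 was lower. Of 13 autophagy and ubiquitin genes 6 were lower, including Map1lc3b (-0.73 ± 0.18) and Gabarap (-0.69 ± 0.16), whose proteins mark membranes for the GTPases, and 1, Rnf213, was higher (2.58 ± 0.27). Of 8 inflammasome genes 4 were higher, among them Il1b (5.71 ± 0.32) and Casp4 (2.03 ± 0.39), the caspase that senses LPS in the cytosol, and Casp8 was lower. All 11 type I interferon genes tested that are not GTPases were higher, as were 4 of 7 interferon gamma genes, and Irf7 stands in 2 of the lists.

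In Il10ra mutants at 48 h, where 27.9% of all genes were called against controls and 12.7% were higher, 1 of 6 other GTPases was higher, Gbp9, with 65.4 ± 7.16 reads in mutants (SD, n = 5) and 25.5 ± 12.2 in controls (n = 6; log2 1.40 ± 0.48, adjusted p = 0.0246). No transcription factor of 9 and no inhibitor of 6 was called. Of 4 ligand genes Il12b was higher (3.56 ± 0.62, adjusted p = 1.71e-05) and Ebi3 lower, and 3 of 7 receptor genes were lower, Ifnar1, Ifnar2 and Ifngr1, the receptor chains for both kinds of interferon. The autophagy receptor Sqstm1 was higher (1.06 ± 0.23, adjusted p = 0.000464), with Atg7, among 13 genes. Of 8 inflammasome genes Nlrp3, the sensor whose assembly Gbp5 promotes, was higher (1.33 ± 0.27, adjusted p = 0.000187) and Casp8 and Gsdmd were lower. Of 12 type I interferon genes 2 were higher, Oasl1 (2.09 ± 0.56) and Rtp4 (1.08 ± 0.32), and of 7 interferon gamma genes 3 were higher, Cxcl10 (2.26 ± 0.73), Tap1 (0.79 ± 0.25) and Cd274.

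Set against Il10ra mutants at 48 h (28.6% of all genes called, 13.7% lower), double mutants were lower in 2 of 6 other GTPases, Gbp9 (-1.37 ± 0.42) and Mx2 (-1.21 ± 0.35), in 4 of 9 transcription factors, including Irf2 (-1.24 ± 0.29) and Irf1 (-0.84 ± 0.31), and in 7 of 12 type I and 3 of 7 interferon gamma genes. Cxcl10, a chemokine that attracts T cells, had 220.2 ± 94.4 reads in double mutants (SD, n = 4) and 3305 ± 2631 in Il10ra mutants (n = 5; -4.50 ± 0.61, adjusted p = 4.02e-07). Nlrp3 (-2.81 ± 0.35) and Socs1 (-1.99 ± 0.41) were lower as well. Against doubly floxed controls at 48 h, where 0.0169% of all genes were called, double mutants had no called gene in any of the 9 lists.

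Likeness was measured over the 48 libraries of the table of controls and Il10ra mutants. These come from several experiments and held 558878 to 1875460 reads each. The measure was the correlation of each gene's log2 values with the members' median in each library, after each member was centred on its own mean. Irgm1 was the most alike of the members at 0.9661, followed by Gbp3 at 0.9419 and Gbp2 at 0.9404, and a member's own value enters that median. Irgm2 was at 0.0991, rank 4922 of 11555 genes. Among pairs of members without Irgm2, 28 correlations ran from 0.576 to 0.9291, whereas the 8 with Irgm2 ran from -0.1056 to 0.2748. The genes outside the family with the most similar pattern were Tap1 (0.9385), which loads peptides for antigen presentation, Oasl1 (0.9312), Parp14 (0.929), Rtp4 (0.9265), Xaf1 (0.9252), Smim3 (0.9248) and the chemokines Cxcl10 (0.9228) and Ccl12 (0.9222).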

How the data were processed

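Deposited values are normalised read counts per gene, a signal that the authors made by dividing counts by a factor per library. Neither the aligner nor the factors are given in the sources used here. RNA reads were placed on mm10, per the submitters' processing notes. Within a tolerance of 0.01, 100% of the values in these tables were whole multiples of the library's smallest step, so whole reads were recovered: 685687 to 1741686 per library in the control table, 558878 to 1875460 with Il10ra mutants, 540642 to 2489084 with the doubly floxed mice and 558105 to 1496077 in untreated mice alone. The first 2 tables share 22 libraries. Of 89 RNA libraries, 1 had labels that conflict on its genotype and entered no comparison, and 20 ATAC libraries were not used. The deposited names of that library and of untreated double mutant replicate 4 both end in the word mistake. The labels of replicate 4 do not conflict on genotype, and it was kept. Rows whose names had become dates (17 or 18 per table) were left out.

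Tests used log2(value + 1) and genes with at least 5 in at least 4 libraries (11103, 11555, 11800 and 10367 genes). They were run with limma 3.58.1 in R 4.3.3 with all groups of a table, Benjamini-Hochberg adjusted over all genes tested. A term for experiment was entered in all tables except that of untreated mice. Day 7 and C57BL/6 libraries are each an experiment of their own. Checks on recovered reads used edgeR 4.0.16 and DESeq2 1.42.0. Other alternatives were a pseudocount of 5, no filter, no experiment term, quantile normalization, the replicate block, 1 experiment alone, and each replicate left out. The steps were tested on simulated data. Python 3.11.15 with numpy 2.4.6, pandas 2.3.3, scipy 1.17.1 and matplotlib 3.10.9 made the summaries and the figures.

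The members and the gene lists were chosen with earlier results of these data known, and the Igtp and Irgm2 gap after its values were seen. Named genes are every member in every comparison, Il10ra and Tnf as a check of the labels, up to 4 called genes per list by lowest p, and the 8 genes most like the members, leaving out Gm and Rik names. Members were matched by symbol.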

Additional observations from a re-analysis of the deposited data

Results flagged for a closer look

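In 143 groups of 4 to 10 libraries, 8 had a library far from the others by Dixon's 95% criterion, and chance gives about 1 in 20. In Gbp2, day 7 control replicate 3 was at 5.282 normalised reads, with the nearest other library at 12.963. In Gbp3, untreated control replicate 4 was at 25.743, with the nearest at 33.095. Gbp4 had 3 such libraries: control replicate 5 at 6 h at 8.551 (nearest 2.516), untreated double mutant replicate 4 at 1.414 (all others 0) and double mutant replicate 1 at 6 h at 18.48 (nearest 7.714). In Iigp1, untreated Il10ra mutant replicate 9 was at 11.442 (nearest 3.845). In Irgm2, Il10ra mutant replicate 2 at 6 h was at 99.476 (nearest 63.95) and C57BL/6 replicate 3 at 67.369 (nearest 84.021).

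The LPS response of Gbp2 at 48 h differed between Il10ra mutants and controls, with an interaction of 1.8444 on the log2 scale.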

How the results depend on the processing

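Counts of called members moved as follows. With 1 experiment alone, control 24 h against 6 h had 1 (3 in the reported fit), Il10ra mutants against controls 0 at 6 h (1), 0 at 24 h (1) and 4 at 48 h (2), mutant 24 h against 6 h 1 (3), doubly floxed controls 4 at 6 h (7) and 5 at 48 h (8) against untreated, and double mutants 3 at 48 h against 6 h (5). The 1 member called there for mutants at 24 h against 6 h was Gbp7, which the reported fit did not call. Without the experiment term, mutants against controls had 0 at 6 h, 0 at 24 h and 4 at 48 h, and the 48 h interaction had 2 (1). With edgeR, mutants against controls had 2 at 6 h and 4 at 48 h, and doubly floxed controls 5 at 48 h. With DESeq2, mutants against controls had 2 at 6 h and 0 at 24 h, and double mutants against controls 1 at 6 h (0). With quantile normalization, mutants against controls had 4 at 48 h, double mutants 3 at 48 h against 6 h, and C57BL/6 against floxed controls 0 (1). The replicate block gave mutants against controls 2 at 6 h. Replicate numbers do not pair the libraries: of 300 same-numbered pairs 32 had a correlation of deviations over 0.1 (range -0.327 to 0.421).

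Leaving out 1 library at a time gave 0 to 3 for mutants against controls at 6 h, 0 to 3 at 24 h and 2 to 4 at 48 h, 0 to 1 for the interactions at 24 h and at 48 h, 0 to 2 for double mutants against controls at 6 h, 3 to 5 for double mutants at 48 h against 6 h, and 0 to 2 for C57BL/6. The Igtp and Irgm2 shifts kept their sign with a pseudocount of 5 and without each library, both chosen after seeing the data. Of 5669 values for single genes, 5499 kept their side of the threshold, 125 lost a call and 45 gained one. None changed direction where it was called in the reported or the alternative fit. Values called in neither could change direction, as for Gbp2 in C57BL/6 mice against floxed controls (log2 -0.385 to 0.486). The cause was not tested. Gbp4 and Iigp1, with few reads in untreated libraries, are the members that depth limits most.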
